A study of Rattus norvegicus with 17 samples.

Results

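The response of the wild-type (WT) rat meibomian gland (MG) to ultraviolet B (UVB) was read from 7 of the 17 rats of the series, the 4 Control WT rats and the 3 UVB WT rats. These members were chosen by their labels alone, and 12729 of the 17251 genes in the deposited table had at least 1 TPM (a level scaled for gene length and library size) in at least 3 of the 7 rats and were compared. All were female rats of 10 to 12 weeks, of the Sprague-Dawley strain by the study's methods, and their MG RNA was sequenced in bulk. UVB WT rats had received UVB on the eyelids for 5 days, and Control WT rats had not. The other 10 rats, 5 Control P1.hMR and 5 UVB P1.hMR, carried a transgene for the human mineralocorticoid receptor, NR3C2, under its proximal P1 promoter. WT rats were their littermates without it, and human NR3C2 was listed at 0 TPM in all 7 WT rats and at 5.31 to 9.31 TPM in the P1.hMR rats. In the study's methods the upper eyelids of UVB rats were shaved before exposure, whereas shaving of control eyelids is not stated, and if the controls were not shaved, the effects of shaving and UVB cannot be told apart. Each column holds 1 rat, possibly both of its eyes.

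The MG is a modified sebaceous gland of the eyelid. Its acinar cells, the meibocytes, fill with wax esters, cholesteryl esters and triglycerides, then break down whole and release meibum onto the tear film, so that the gland depends on division of basal cells. The ducts are lined by a keratinizing epithelium, and the glands lie close to lash follicles, eyelid muscle, vessels, nerves and pigment cells. In skin, UVB damages DNA directly, and is known to provoke inflammation, thickening of the epithelium and breakdown of dermal matrix.

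Meibocyte transcripts were abundant in both groups. Those of the 16 meibocyte genes examined, all of them detected, summed to 52560 to 63487 TPM in Control WT rats and to 49306 to 56993 TPM in UVB WT rats. Scd, the stearoyl-CoA desaturase that makes monounsaturated fatty acids, was the most abundant of them. It reached 31198, 27643, 26576 and 25353 TPM in the controls and 25283, 30815 and 25000 TPM with UVB, so the groups overlapped. Other tissues were present as well: skeletal muscle genes summed to 3836 to 5446 TPM in controls and 2687 to 4741 TPM with UVB, and hair shaft keratins to 407 to 838 TPM and 193 to 490 TPM. In such bulk samples, fewer cells of a type and less RNA per cell cannot be told apart. The deposited TPM summed to 820290 to 840817 per rat, and 12372 to 12625 genes reached 1 TPM in each rat. The study's methods give a range of mapped reads, but the depth of each rat is not given.

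Between UVB WT and Control WT rats 1015 genes differed (7.97% of those tested). Of the 12729 genes, 500 rose (3.93%) and 515 fell (4.05%), by limma on log2(TPM + 1) with a Benjamini-Hochberg adjusted p under 0.05 and a log2 fold change of at least 0.5 in size. The median log2 fold change over all genes was 0.01. Most changes were modest: 217 of the called genes moved by 1 or more on the log2 scale and 19 by 2 or more, 15 of them upwards and 4 downwards. The first principal component held 47.2% of the variance among the 7 rats and separated the groups, the controls lying between -19.3 and -11.5 and the UVB rats between 20.9 and 23.3. Genes that rose took 2.3 to 2.42% of the TPM in Control WT rats and 3.81 to 4.16% in UVB WT rats, while genes that fell took 5.42 to 6.26% and 2.89 to 3.56%. The values of the 2 groups did not overlap for 1793 genes that were higher with UVB (14.1% of those tested) and for 1614 that were lower (12.7%), which included 442 of the 500 genes called higher and 433 of the 515 called lower. The count of genes that fell depended on UVB WT rat 2 and was 340 without it. Among the genes tested, 27 were under 1 TPM in every control and could pass the level filter only through the UVB rats, and 25 of them were called higher. A further 75 were under 1 TPM in every UVB rat, and 31 of them were called lower. Among the genes of the functional lists, Lcn2, Cfi, Ms4a7, Cd8a, Hdc and Ptgs2 were of the first kind and Krt2, Krt77, Slc45a2, Gpr143, Cidec and Ccl24 of the second, and they are included in the counts of their lists.

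**Figure D1:**
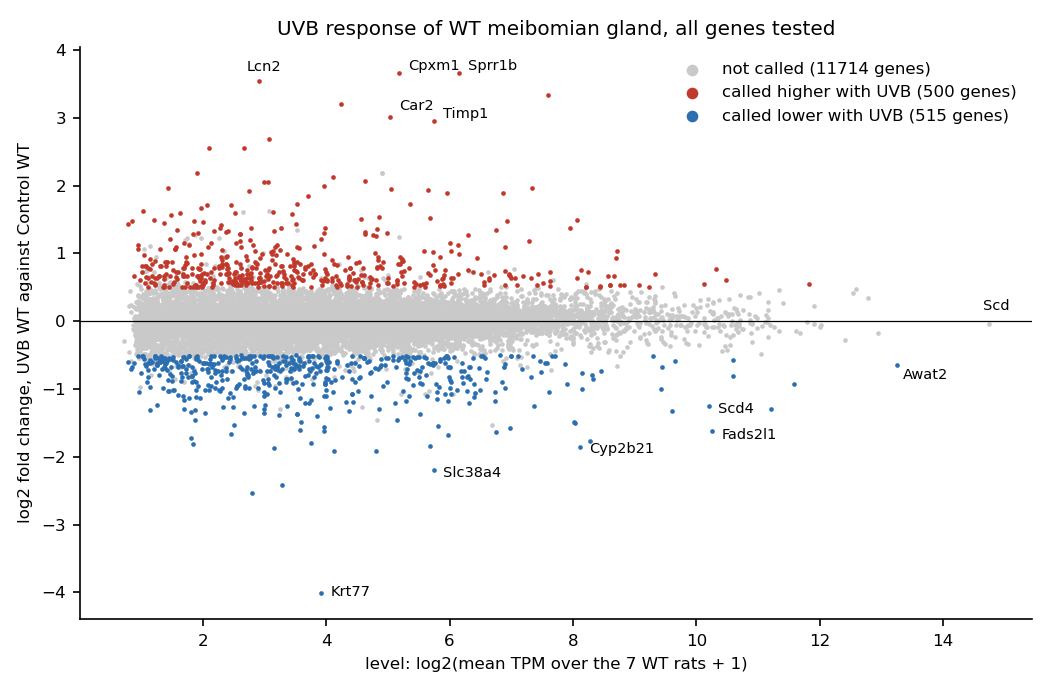
Log2 fold change of UVB WT against Control WT (vertical axis) against the level of each of the 12729 genes (horizontal axis, log2 of the mean TPM over the 7 rats plus 1). The 500 genes called higher and 515 called lower include scarce and abundant genes, with Krt77 lowest at -4.01 and the abundant Awat2 at -0.65.

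Cpxm1 and Sprr1b led the genes that rose. Cpxm1, a secreted carboxypeptidase-like protein, stood at 4.03, 3.89, 4.46 and 6.45 TPM in the 4 controls and at 79.6, 39.8 and 109 TPM in the 3 UVB rats. Its lowest UVB value lay far above its highest control value, with a log2 fold change of 3.66 ± 0.25 (SE, adjusted p = 8.29e-07). Sprr1b, a small proline-rich protein that is crosslinked into the cornified envelope of stressed epithelia, was at 11.4, 12.9, 5.51 and 15.4 TPM in controls against 134, 124 and 186 TPM with UVB. Its log2 fold change was again 3.66, with an SE of 0.30 (adjusted p = 3.39e-06). Car2, the cytosolic carbonic anhydrase, had a mean of 6.85 ± 1.83 TPM (SD, n = 4) in controls and of 65.0 ± 28.5 TPM (SD, n = 3) in UVB rats, a ratio of 9.49.

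Secreted inhibitors and lubricants were also among the leading genes. Timp1, an inhibitor of matrix metalloproteinases, was at 11.4, 10.5, 11.3 and 13.2 TPM in controls and at 173, 58.5 and 87.7 TPM with UVB (log2 fold change 2.95 ± 0.27, adjusted p = 7.37e-06). The spread among the UVB rats was wide, yet the lowest of them was above every control. Prg4, which encodes the boundary lubricant lubricin, rose from 1.82, 1.64, 1.36 and 1.16 TPM in controls to 15.2, 11.5 and 19.0 TPM with UVB. Lcn2, Nppb and Hdc are among the 27 genes that passed the level filter only through the UVB rats, so their values are a description. Lcn2, the iron-sequestering lipocalin of innate defence, was nearly silent in controls at 0.09, 0.07, 0 and 0.29 TPM and stood at 28.4, 12.5 and 4.4 TPM with UVB. The 3 UVB rats thus differed among themselves by several fold. Nppb, which encodes a natriuretic peptide, was at 0.21 to 0.48 TPM in controls and 4.08 to 11.4 TPM with UVB.

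The other leading rises included genes of immune cells and of muscle. Cd163, the haemoglobin scavenger receptor of macrophages, was at 0.93, 1.46, 0.56 and 0.93 TPM in controls and at 13.5, 5.54 and 14.6 TPM with UVB (log2 fold change 2.55 ± 0.29, adjusted p = 4.6e-05). Hdc, which makes histamine, was at 0.21 to 0.37 TPM in the controls and at 12.3, 2.23 and 3.59 TPM with UVB, so that UVB WT rat 1 stood above the other two. Fscn1, an actin-bundling protein of mature dendritic cells and migrating epithelium, rose to almost the same level in each rat, from 12.5, 8.80, 8.38 and 8.22 TPM to 42.2, 42.8 and 42.6 TPM. The chemokines Ccl2 and Pf4 rose by 2.05 and 2.00 on the log2 scale. Defb4, an antimicrobial beta-defensin, was already abundant at 63.6 to 85.3 TPM in controls and reached 228, 270 and 343 TPM. Pnpla5, a lipid droplet triglyceride lipase, rose by 2.13 on the log2 scale. Csrp3, a stretch-responsive LIM protein of striated muscle, went from 22.9, 30.2, 17.9 and 15.4 TPM to 107, 94.5 and 57.0 TPM (log2 fold change 1.94 ± 0.26, adjusted p = 0.000191).

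**Figure D2:**
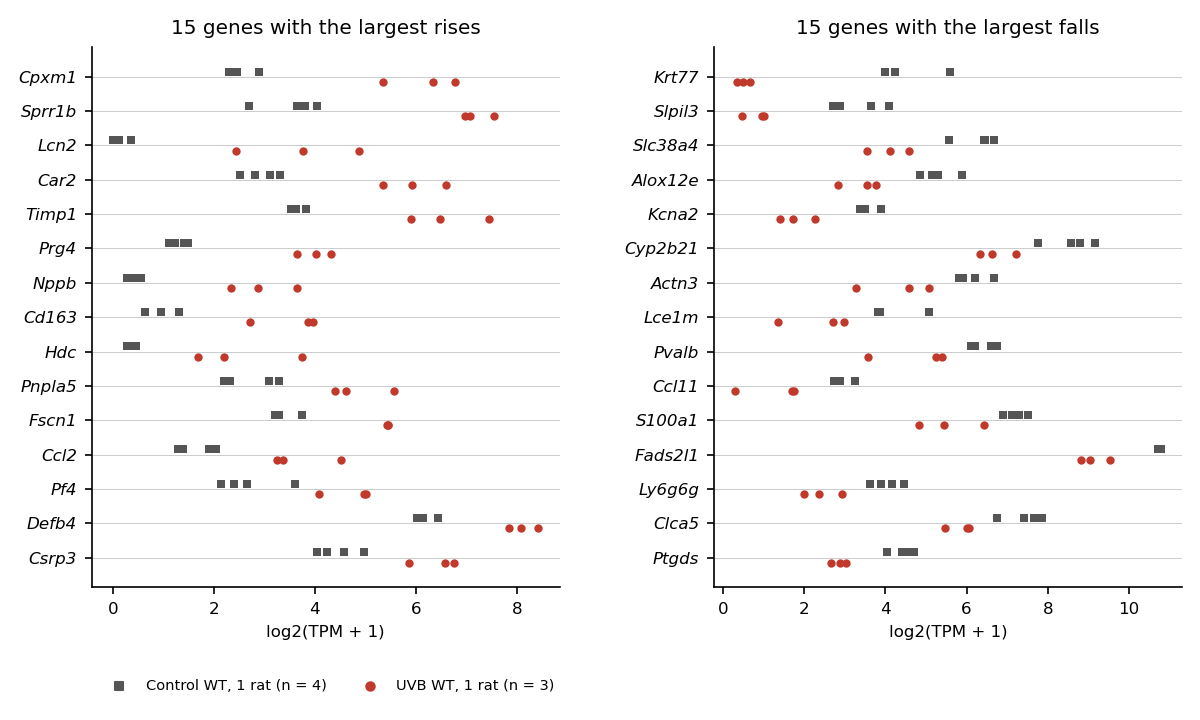
Log2(TPM + 1) of each WT rat (squares, 4 Control WT rats; circles, 3 UVB WT rats) for the 15 genes with the largest rises and the 15 with the largest falls among called genes whose groups do not overlap. Rises run from 1.94 (Csrp3) to 3.66 (Cpxm1) on the log2 scale and falls from -1.56 (Ptgds) to -4.01 (Krt77).

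Among the genes that fell most, Krt77 stood apart. This type II keratin, found in eccrine duct and suprabasal epithelium, was at 14.97, 17.9, 17.7 and 47.2 TPM in controls and at 0.59, 0.26 and 0.41 TPM with UVB. It is among the 75 genes that passed the level filter only through the controls. Every UVB rat was under 1 TPM and every control at 14.97 TPM or more, and the log2 fold change was -4.01 ± 0.37. Slpil3, a gene named as similar to the leukocyte peptidase inhibitor Slpi, fell by 2.53 on the log2 scale, from 5.52 to 16.1 TPM down to 0.37 to 1.01 TPM. Lce1m, a late cornified envelope protein, was at 13.1, 13.2, 13.7 and 32.6 TPM in controls and at 6.95, 1.55 and 5.59 TPM with UVB (log2 fold change -1.80 ± 0.45, adjusted p = 0.0101). That call was lost without UVB WT rat 2 (log2 fold change -1.29, adjusted p = 0.0638).

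Metabolic enzymes and transporters made up much of the remainder. Fads2l1, named as a fatty acid desaturase 2-like gene, was the most abundant of the 15 and varied little among controls, at 1684, 1731, 1760 and 1692 TPM. With UVB it stood at 744, 447 and 524 TPM, a log2 fold change of -1.62 ± 0.14 (adjusted p = 5.81e-06). Slc38a4, an amino acid transporter, fell by 2.20, Alox12e, an epidermal lipoxygenase, by 1.92 and Cyp2b21, a cytochrome P450, by 1.85 on the log2 scale. Cyp2b21 varied more among rats, at 215, 377, 441 and 577 TPM in controls and 147, 98.4 and 78.8 TPM with UVB. Kcna2, a voltage-gated potassium channel, fell by 1.87, Clca5, a member of the calcium-activated chloride channel regulator family, by 1.58 and Ly6g6g, of the Ly6 family, by 1.60. Ptgds, which makes prostaglandin D2, fell from 15.6, 20.4, 21.7 and 25.1 TPM to 5.32, 6.31 and 7.21 TPM (log2 fold change -1.56 ± 0.20, adjusted p = 0.000134). S100a1, a calcium-binding protein, fell by 1.64 on the log2 scale.

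Most mitosis genes were called higher, and a smaller part of the DNA replication genes was. The mitosis list held 24 tested genes, of which 17 rose (against 3.93% of all genes), none fell and all 24 had a positive log2 fold change, with a median of 0.65 against 0.01 over all genes. Plk1, the kinase that drives entry into and progress through mitosis, was at 9.96, 10.0, 10.6 and 9.36 TPM in controls and 24.4, 19.2 and 19.1 TPM with UVB (log2 fold change 0.99 ± 0.17, adjusted p = 0.0011). The kinetochore motor Cenpe rose by 0.85, the spindle assembly factor Tpx2 by 0.83 and Ube2c, a ubiquitin-conjugating enzyme of the anaphase-promoting complex, by 0.78. Cdc20, the activator of that complex, went from 19.8, 21.1, 24.2 and 18.2 TPM to 48.6, 34.0 and 31.4 TPM. The highest value of each of these genes was in UVB WT rat 1, and 11 mitosis genes rose without it. Of 28 DNA replication genes 4 were called higher and none lower, with a median of 0.27, and the number was 2 without UVB WT rat 1. A positive log2 fold change was seen in 27 of the 28. By limma 13 had an unadjusted p under 0.05, with no share over all genes to set beside it. The leading one was Rrm2, the small subunit of ribonucleotide reductase that supplies deoxynucleotides, at 16.3, 13.1, 15.6 and 11.2 TPM in controls and 40.9, 33.2 and 35.2 TPM with UVB (log2 fold change 1.32 ± 0.15, adjusted p = 4.25e-05). Pcna, the sliding clamp of DNA polymerase, was at 86.6 to 114 TPM in controls and 93.6 to 111 TPM with UVB and was not called (log2 fold change 0.07 ± 0.08, adjusted p = 0.551).

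Many mitotic genes are known to share promoter elements that time their transcription to late cell cycle, the cell cycle gene homology region (CHR) and CCAAT boxes. The 250 bases before the RefSeq start (GRCr8) of the tested mitosis genes, called or not, were searched on both strands. The letters sought were TTTGAA (CHR) and CCAAT, and 21 of the 24 tested genes could be matched. Both motifs were found in 8 of the 21 (38.1%) and in 5.76% of the 27457 RefSeq promoters, 1 per gene symbol. CCAAT alone was present in 17 of the 21 (81.0%) against 34.3%, and TTTGAA in 9 (42.9%) against 16%. The list was chosen by function and such genes are known to carry these motifs, so these shares are no evidence about the UVB response. A match describes the letters and not a bound site. The 120 bases just before the start are shown for Cdc20, Cdk1 and Prc1, the called mitosis genes of largest rise with both motifs in that stretch. Cdk1, the mitotic cyclin-dependent kinase, rose by 0.65 on the log2 scale and Prc1, a microtubule crosslinker of the central spindle, by 0.64, and without UVB WT rat 1 neither was called (0.43 and 0.47). Capitals mark TTTGAA or CCAAT on either strand. The stretches lie at chr5:137255800-137255919 on the minus strand, chr20:19265173-19265292 on the plus strand and chr1:143659361-143659480 on the plus strand.
Cdc20: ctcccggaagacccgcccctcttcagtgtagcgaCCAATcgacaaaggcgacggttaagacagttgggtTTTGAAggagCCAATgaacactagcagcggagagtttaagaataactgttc
Cdk1: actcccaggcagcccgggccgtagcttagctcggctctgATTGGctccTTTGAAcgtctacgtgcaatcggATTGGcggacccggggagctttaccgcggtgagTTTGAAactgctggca
Prc1: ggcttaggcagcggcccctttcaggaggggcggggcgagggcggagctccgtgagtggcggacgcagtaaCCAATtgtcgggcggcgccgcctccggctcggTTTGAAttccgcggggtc

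Lists of the classical response to UV damage held few or no called genes after these 5 days. Over all genes tested 7.97% were called, a share at which lists this short would also hold few. None of 18 targets of the damage-activated transcription factor p53 was called in WT rats (median 0.07), and none of 17 nucleotide excision repair genes (median 0.04) or 9 heat shock genes (median 0.13). By the same limma test 7, 6 and 5 of them had an unadjusted p under 0.05. The share of all genes with such a p is not given here, so these numbers cannot be read as an excess. One rat decided at most 1 call in these lists, a p53 target called higher without Control WT rat 3 and a heat shock gene without Control WT rat 1. Perp, a desmosomal p53 target and the most abundant of the first list, was at 1055 to 1148 TPM in controls and 1059 to 1220 TPM with UVB (log2 fold change 0.05 ± 0.06, adjusted p = 0.53). Rad23b, a partner of the lesion sensor of excision repair, had a log2 fold change of 0.11 ± 0.06 (adjusted p = 0.21), and the constitutive chaperone Hspa8 one of 0.12 ± 0.07 (adjusted p = 0.264). Of 15 targets of the antioxidant regulator NRF2, 2 rose, the cystine transporter Slc7a11 and the quinone reductase Nqo1, and 1 without UVB WT rat 3. Nqo1 went from 50.4, 43.7, 54.3 and 39.2 TPM to 70.5, 81.5 and 68.2 TPM (log2 fold change 0.64 ± 0.15, adjusted p = 0.00764). The ferritin chain Fth1 had a log2 fold change of 0.20 and was not called. Of 14 immediate early genes 1 rose, Fosl1, a subunit of AP-1 (0.70 on the log2 scale), and 1 fell, Egr2 (by 0.63). A single time point cannot show earlier changes.

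The epithelial barrier genes moved in both directions. Of 22 cornified envelope genes 6 rose, 5 fell and the median was -0.19, with the number that fell 3 without UVB WT rat 2 and 8 without UVB WT rat 3. The 6 were Sprr1b, Sprr3, Sprr1a, the cornifelin gene Cnfn and the transglutaminases Tgm1 and Tgm3. Sprr3 was at 126, 123, 175 and 173 TPM in controls and 406, 316 and 557 TPM with UVB (log2 fold change 1.49 ± 0.23, adjusted p = 0.000525), and Tgm3, which crosslinks envelope proteins and also serves the hair sheath, rose by 1.30 on the log2 scale. The 5 that fell were the late cornified envelope genes Lce1m, Lce1l and Lce6a, involucrin (Ivl) and suprabasin (Sbsn). Krtdap, a keratinocyte differentiation protein and the most abundant of the list, was at 1524 to 1838 TPM in controls and 1769 to 2813 TPM with UVB and was not called. The genes of this family, like the keratins and kallikreins, are similar in sequence, and reads shared between copies could be split among them.

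The kallikreins, secreted serine proteases that digest the bonds between shed corneocytes, also split. Of 14 tested members and inhibitors, 6 rose and 2 fell, with a median of 0.14. Klk6 was at 49.99, 46.2, 51.6 and 56.8 TPM in controls and 176, 140 and 290 TPM with UVB (log2 fold change 1.89 ± 0.20, adjusted p = 2.29e-05). Klk9 and Klk14 rose by 1.36 and 1.35. Spink5, the inhibitor of these proteases, fell from 345, 315, 375 and 327 TPM to 247, 144 and 226 TPM (log2 fold change -0.76 ± 0.14, adjusted p = 0.0019), and Klk5 fell as well.

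Of 18 epithelial keratins 4 fell, none rose and the median was -0.02, but 3 were called higher without UVB WT rat 2 and 1 without Control WT rat 4. Besides Krt77, Krt75 of the follicle companion layer fell by 0.71 and Krt80 by 0.62 on the log2 scale. Krt14, the keratin of basal cells, was at 4731, 5113, 5279 and 5995 TPM in controls and 7482, 6876 and 7657 TPM with UVB. The groups did not overlap, but its log2 fold change of 0.48 ± 0.13 (adjusted p = 0.0172) was under the size required. It was called without Control WT rat 4 (0.54) or without UVB WT rat 2 (0.52). Of 25 desmosome and tight junction genes 3 fell and none rose, although 1 was called higher without Control WT rat 3 or UVB WT rat 1. Dsg4, the desmoglein of hair and upper epidermis, fell by 1.06 and the claudin Cldn7 by 0.66, while the desmosomal plaque protein Pkp1 had a log2 fold change of 0.08 ± 0.06 (adjusted p = 0.348). Of 13 genes of the EGF receptor system 2 rose and none fell, with a median of -0.19. One of the 2 rises was lost without UVB WT rat 3, and 1 gene was called lower without Control WT rat 3, UVB WT rat 1 or UVB WT rat 3. The larger rise was in Epgn, a ligand of that receptor, from 1.21, 0.76, 1.07 and 1.04 TPM to 6.37, 4.58 and 5.40 TPM (log2 fold change 1.67 ± 0.21, adjusted p = 0.000108).

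**Figure D3:**
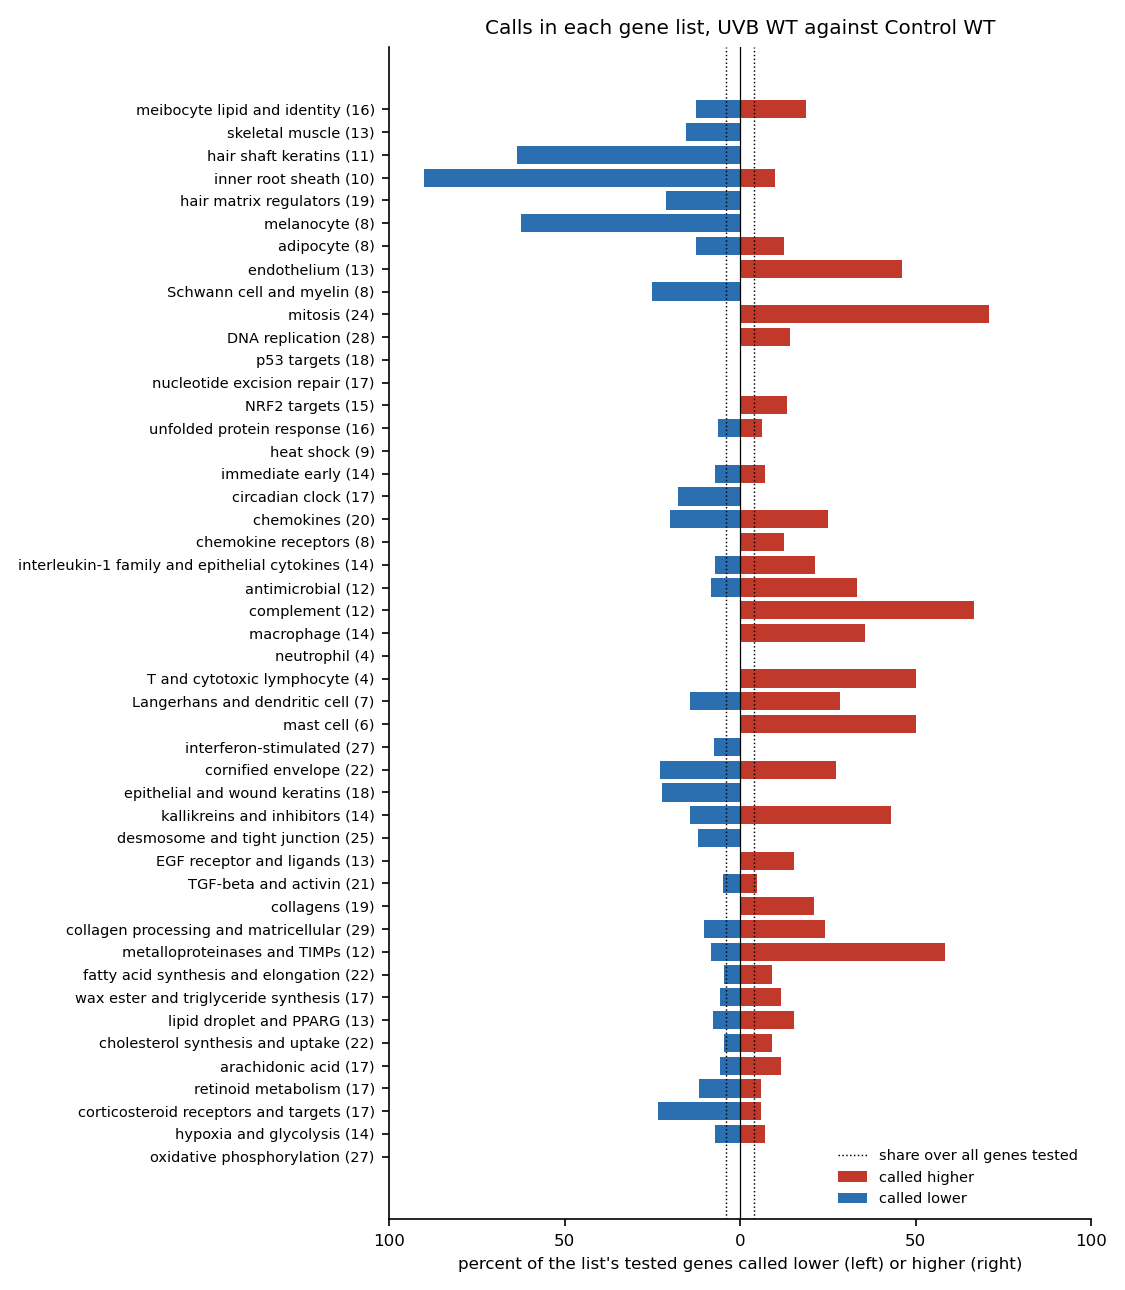
Share of the tested genes of each list (number tested in brackets, lists with at least 4) that were called higher (right, red) or lower (left, blue) in UVB WT against Control WT rats. Dotted lines mark 3.93% and 4.05%, the shares over all genes tested. Mitosis (17 of 24) and complement (8 of 12) lie on the right and the inner root sheath (9 of 10) on the left.

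Inflammatory signals were selective. Of 20 chemokines 5 rose and 4 fell, the median being -0.02. The rises were in the monocyte and neutrophil attractants Ccl2, Ccl7, Cxcl3 and Cxcl6 and in Ccl21, and without UVB WT rat 1 the number was 2. The falls were in the eosinophil attractants Ccl11 and Ccl24 and in Ccl6 and Ccl22. Ccl11 went from 8.48, 6.41, 5.64 and 6.04 TPM to 2.37, 2.24 and 0.23 TPM (log2 fold change -1.67 ± 0.45, adjusted p = 0.0144), and was not called without UVB WT rat 3 (-1.2, adjusted p = 0.0812). Of 14 genes of the interleukin-1 family and epithelial cytokines 3 rose and 1 fell, the latter not called without Control WT rat 2 or 4 or UVB WT rat 1 or 2. Il36g, an alarm cytokine of keratinocytes, was at 1.12 to 1.94 TPM in controls and at 3.51, 5.48 and 8.98 TPM with UVB (log2 fold change 1.33 ± 0.28, adjusted p = 0.00361). Of 27 interferon-stimulated genes 2 fell, none rose and the median was -0.12. The number that fell was 1 without Control WT rat 1 or 4 and 0 without UVB WT rat 2, and 1 rose without Control WT rat 4. Oas3, a sensor of double-stranded RNA, fell by 0.60 and was not called without UVB WT rat 2 (-0.54, adjusted p = 0.0599).

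Most complement genes rose. Of 12 complement genes 8 rose and none fell, with a median of 0.76, and the risers covered all 3 chains of C1q and both proteases of the C1 complex. Serping1, the inhibitor of these proteases, was at 39.0, 47.5, 47.1 and 57.9 TPM in controls and 141, 96.4 and 113 TPM with UVB (log2 fold change 1.27 ± 0.15, adjusted p = 5.17e-05). C1qb rose from 14.3, 17.8, 12.3 and 21.7 TPM to 41.1, 30.7 and 50.4 TPM, and C2 by 0.95 on the log2 scale. Of 12 antimicrobial genes 4 rose and 1 fell, the fall not called without UVB WT rat 2. Slpi, a protease inhibitor of mucosal secretions, went from 21.9, 40.2, 17.6 and 30.02 TPM to 67.5, 55.0 and 122 TPM (log2 fold change 1.52 ± 0.31, adjusted p = 0.00302). S100a8, a calprotectin subunit of neutrophils and stressed keratinocytes, was abundant in every rat at 1271 to 1435 TPM in controls and 1441 to 1564 TPM with UVB, and was not called (log2 fold change 0.14 ± 0.09, adjusted p = 0.286).

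Markers of immune cells differed by cell type. Of 14 macrophage genes 5 rose and none fell, with a median of 0.51, and 1 was called lower without Control WT rat 1. Besides Cd163, the mannose receptor Mrc1 went from 1.27, 2.66, 1.54 and 3.11 TPM to 8.81, 3.43 and 9.48 TPM, and Cd14, the lipopolysaccharide co-receptor, rose by 0.84. Lyz2, the lysozyme of myeloid cells, was the most abundant of the list and did not follow them, at 88.6, 144, 85.7 and 339 TPM in controls and 104, 72.2 and 114 TPM with UVB (log2 fold change -0.54 ± 0.44, adjusted p = 0.408). Of 6 mast cell genes 3 rose, with a median of 0.64. Tpsab1, a mast cell tryptase, was at 1.03, 1.05, 0.82 and 1.60 TPM in controls and at 3.18, 3.19 and 4.81 TPM with UVB. Of 4 tested T and cytotoxic lymphocyte genes 2 were called higher. Cd2 rose by 0.79 on the log2 scale, and Cd8a, at 0.18 to 0.36 TPM in controls and 1.08 to 2.20 TPM with UVB, passed the level filter only through the UVB rats. None of 4 tested neutrophil genes was called by limma, and 1 had an unadjusted p under 0.05. Of 7 Langerhans and dendritic cell genes 2 rose and 1 fell, with a median of -0.20. Cd207, the langerin of Langerhans cells, fell from 13.1, 16.6, 21.1 and 27.1 TPM to 6.83, 8.6 and 9.3 TPM (log2 fold change -1.11 ± 0.21, adjusted p = 0.00207). The rises were in Fscn1 and in Ccr7, a chemokine receptor, but Ccr7 was not called without Control WT rat 2, 3 or 4 or UVB WT rat 1 or 3. Ccr7 was also the 1 gene called among 8 tested chemokine receptors. None of the tested B cell genes (3) or MHC class II genes (2) was called by limma, and 1 and 0 of them had an unadjusted p under 0.05.

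Of 12 tested metalloproteinases and their inhibitors 7 rose and 1 fell, with a median of 0.65. The 7 were 6 metalloproteinases and the inhibitor Timp1, and the fall of the inhibitor Timp3 was not called without UVB WT rat 2. Mmp2, a gelatinase of stromal cells, was at 66.0, 83.6, 87.9 and 78.4 TPM in controls and 192, 150 and 169 TPM with UVB (log2 fold change 1.10 ± 0.09, adjusted p = 2.73e-06). The collagenase Mmp13 rose by 1.10, from 0.66 to 1.32 TPM up to 1.91 to 5.70 TPM. Of 19 collagen genes 4 rose, none fell and the median was 0.33, but 1 was called lower without Control WT rat 1 and 2 without UVB WT rat 1. The 4 were of basement membranes and vessels: Col4a1 rose from 24.6, 31.4, 26.3 and 23.0 TPM to 53.5, 43.8 and 53.7 TPM (log2 fold change 0.91 ± 0.10, adjusted p = 3.83e-05), its partner Col4a2 by 0.78 and Col8a1 by 1.28, the fourth being Col18a1. Col1a1, the main fibrillar collagen, was at 361, 569, 598 and 438 TPM in controls and 492, 328 and 239 TPM with UVB. It was not called (log2 fold change -0.51 ± 0.22, adjusted p = 0.114), but was called lower without Control WT rat 1 (-0.65) or without UVB WT rat 1 (-0.78).

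Of 29 genes for collagen processing and matricellular proteins 7 rose and 3 fell, with a median of 0.29. The number that fell was 1 without Control WT rat 4 and 0 without UVB WT rat 2. Lum, the proteoglycan lumican that spaces collagen fibrils, had the largest rise, from 21.8, 26.6, 29.9 and 29.9 TPM to 137, 69.3 and 113 TPM (log2 fold change 1.89 ± 0.17, adjusted p = 5.82e-06). Sparc, the most abundant of the list, was not called (log2 fold change -0.26 ± 0.14, adjusted p = 0.201). Endothelial genes moved with these, 6 of 13 rising and none falling, with a median of 0.43. Plvap, of the diaphragms of fenestrated capillaries, went from 76.3, 67.6, 74.0 and 66.3 TPM to 117, 109 and 121 TPM (log2 fold change 0.70 ± 0.11, adjusted p = 0.000684). The TGF-beta co-receptor Eng rose by 0.90 and Vwf, the platelet adhesion factor of vessel walls, by 0.70. The part of a larger share of vessel cells in these rises was not tested.

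Most genes of the lipid lists were not called, though in each list the called share was above the 7.97% of all genes tested. Of the 16 meibocyte genes 3 rose (against 3.93% of all genes) and 2 fell (against 4.05%), and the median was -0.08. The 3 rises (Mc5r, Elovl3, Fabp5) were near the threshold: 1 was left without Control WT rat 4 or UVB WT rat 3, and none without UVB WT rat 2. The 2 falls, Awat2 and Scd4, stayed called with each WT rat left out. Awat2, which esterifies fatty alcohols and retinol and is needed for meibum wax esters, was at 12001, 11609, 12062 and 10767 TPM in controls and 7744, 7434 and 6961 TPM with UVB. Its controls varied by little and all lay above the UVB rats (log2 fold change -0.65 ± 0.08, adjusted p = 0.000114), but with quantile normalization, which pulls the top ranks of all rats to one value, it was -0.4 and no longer called. Scd4, a second desaturase, went from 1618, 1726, 1626 and 1287 TPM to 912, 589 and 524 TPM (log2 fold change -1.25 ± 0.16, adjusted p = 0.000153), while that of the more abundant Scd was -0.04 ± 0.10 (adjusted p = 0.826).

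Among 22 genes of fatty acid synthesis 2 rose and 1 fell, with 1 rise without Control WT rat 3 or 4 or UVB WT rat 2 or 3. Among 17 of wax ester and triglyceride synthesis 2 rose and 1 fell. Elovl5, the elongase of polyunsaturated fatty acids, went from 283, 225, 230 and 206 TPM to 341, 383 and 447 TPM (log2 fold change 0.72 ± 0.10, adjusted p = 0.000289). Dgat1, which makes triglycerides, rose by 0.60 and the fatty acid transporter Slc27a4 by 0.54, though Slc27a4 was not called with quantile normalization (0.5). Of 22 cholesterol genes 20 had a positive log2 fold change, with a median of 0.28, yet 2 were called higher. That number was 4 without Control WT rat 1, 1 without Control WT rat 2 or 4 or UVB WT rat 2 or 3, and 0 without Control WT rat 3. The cholesterol exporter Abca1 fell from 48.7, 50.1, 37.5 and 50.2 TPM to 29.0, 24.0 and 31.3 TPM. Lpl, which frees fatty acids from lipoproteins, rose from 12.9, 17.7, 13.4 and 13.4 TPM to 35.4, 35.2 and 37.7 TPM (log2 fold change 1.28 ± 0.14, adjusted p = 3.6e-05).

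In the arachidonic acid list of 17 genes, 2 rose and 1 fell (2 fell without UVB WT rat 3), and all 3 act in prostaglandin synthesis. Ptgs1, the constitutive cyclooxygenase, went from 3.27, 3.82, 3.29 and 3.05 TPM to 8.38, 8.50 and 10.2 TPM (log2 fold change 1.2 ± 0.13, adjusted p = 2.82e-05). Ptgs2, the inducible form, was at 0.20 to 0.25 TPM in controls and 3.34, 1.10 and 1.10 TPM with UVB, and passed the level filter only through the UVB rats. The prostaglandin D synthase Ptgds fell, as described above. The lipoxygenase Alox12e, which fell by 1.92 on the log2 scale, is outside this list. Of 17 retinoid genes, which share Awat2 with the wax list, 1 rose and 2 fell, and of 13 lipid droplet genes 2 rose and 1 fell. In these 2 lists each count ranged within 0 to 2 with a rat left out.

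Keratins and other structural genes of the hair follicle were among the lists with the most falls. Of 10 inner root sheath genes 9 fell and 1, Tgm3, rose, with a median of -1.11. Krt72 of this sheath went from 14.8, 13.6, 19.1 and 14.0 TPM to 3.62, 3.05 and 9.45 TPM (log2 fold change -1.48 ± 0.30, adjusted p = 0.00305), and Krt26 fell by 1.35. Of 11 hair shaft keratins 7 fell and none rose, with a median of -1.02. Krt82 of the hair cuticle went from 15.5, 13.2, 15.2 and 13.7 TPM to 4.6, 5.12 and 9.02 TPM (log2 fold change -1.13 ± 0.23, adjusted p = 0.00324), and Krt32 fell by 1.08 but was not called without UVB WT rat 2 (-0.91, adjusted p = 0.0514). In both lists UVB WT rat 3 was the highest of the UVB rats. The summed hair shaft keratins overlapped between the groups, as did the sheath genes, at 673 to 1064 TPM in controls and 315 to 859 TPM with UVB.

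These follicle counts depended on single rats. Shaft keratins that fell numbered 4 without Control WT rat 1, 3 without Control WT rat 3, 3 without Control WT rat 4, 2 without UVB WT rat 1 and 1 without UVB WT rat 2. Sheath genes that fell numbered 5 without Control WT rat 3, 4 without UVB WT rat 1 and 3 without UVB WT rat 2. Of 19 regulators of the hair matrix 4 fell and none rose, with a median of -0.30. Msx2, a homeobox factor of the matrix, went from 9.95, 8.65, 10.9 and 8.32 TPM to 4.37, 2.98 and 6.51 TPM (log2 fold change -0.94 ± 0.18, adjusted p = 0.0019). Dlx3 and the WNT effector Lef1 fell by 0.82 and 0.81.

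**Figure D4:**
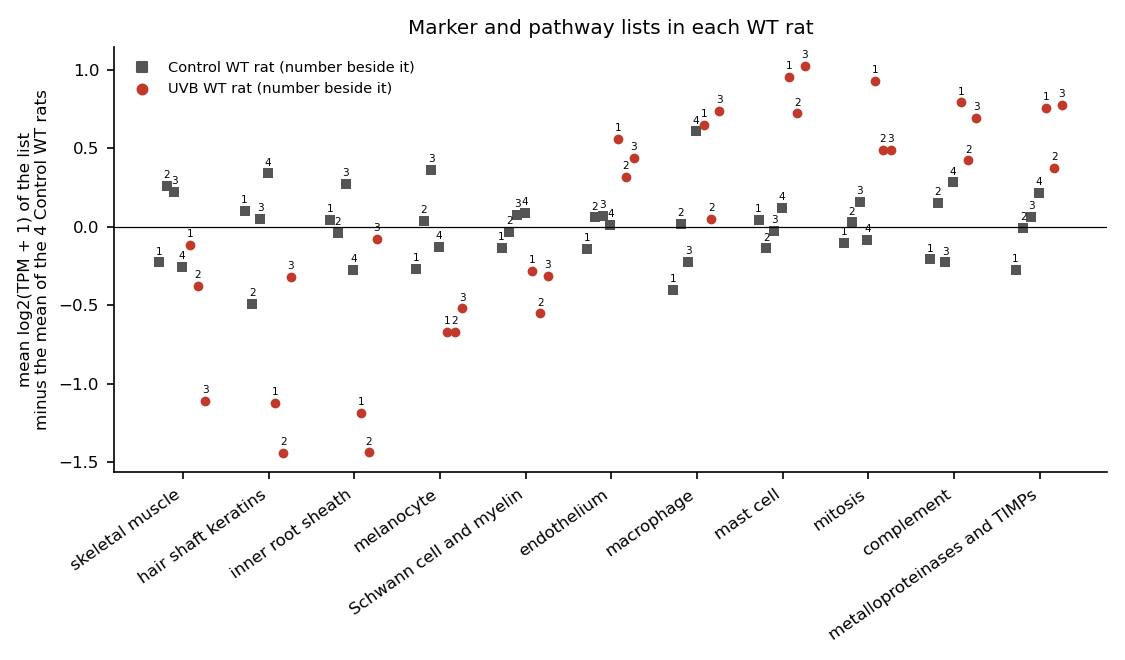
Mean log2(TPM + 1) of 11 gene lists in each WT rat, as the difference from the mean of the 4 Control WT rats (squares, Control WT; circles, UVB WT; the number is the rat). UVB and control rats do not overlap for mitosis, mast cell, endothelium, complement, metalloproteinase, melanocyte and Schwann cell genes, and UVB WT rat 3 is lowest for skeletal muscle genes. Among single genes tested, 14.1% were higher and 12.7% lower without overlap. Some of these lists include genes that passed the level filter only through 1 group, such as Hdc of the mast cell list.

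Pigment, nerve and muscle markers were lower in part. Of 8 melanocyte genes 5 fell, none rose and the median was -0.66. Tyr, the enzyme that starts melanin synthesis, went from 4.00, 4.77, 6.86 and 3.44 TPM to 2.51, 2.19 and 2.43 TPM (log2 fold change -0.74 ± 0.19, adjusted p = 0.0118), and the melanosome protein Mlana fell by 0.70. Of 8 Schwann cell and myelin genes 2 fell, with a median of -0.33, and the number was 1 without Control WT rat 3 or 4 and 0 without UVB WT rat 2. Of 13 skeletal muscle genes 2 fell, the median was -0.39 and 12 had a negative log2 fold change. The median was -0.12 without UVB WT rat 3, and 4 fell without UVB WT rat 1. The 2 belong to fast fibres: Actn3, a Z-disc actinin, went from 59.0, 72.4, 101 and 55.2 TPM to 32.5, 22.8 and 8.72 TPM (log2 fold change -1.84 ± 0.40, adjusted p = 0.00423), and the calcium buffer Pvalb fell by 1.68. Acta1, the actin of all skeletal fibres, was at 648 to 912 TPM in controls and at 864, 842 and 530 TPM with UVB (log2 fold change -0.06 ± 0.20, adjusted p = 0.853). With the mean of the muscle genes as a covariate 500 genes rose and 452 fell. Of 8 adipocyte genes 1 rose, Lpl, and 1 fell, the droplet protein Cidec, which passed the level filter only through the controls and was not called without Control WT rat 2, UVB WT rat 1 or UVB WT rat 3. None of the tested goblet cell genes (2) and red cell genes (1) was called by limma, and 1 and 0 had an unadjusted p under 0.05. One goblet cell gene was called lower without Control WT rat 1 or UVB WT rat 1.

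In the corticosteroid list of 17 genes, 1 rose and 4 fell, with a median of -0.20. Nr3c2, the rat mineralocorticoid receptor, was at 25.9, 17.2, 10.6 and 11.2 TPM in controls and at 7.23, 11.6 and 6.53 TPM with UVB. The groups overlapped, and the call (log2 fold change -0.82 ± 0.23, adjusted p = 0.0194) was lost without UVB WT rat 1 (-0.74, adjusted p = 0.0688) and without UVB WT rat 3 (-0.67, adjusted p = 0.0848). It was lost as well with the 7 WT rats alone (adjusted p = 0.116) and with the muscle covariate (adjusted p = 0.0572). Hsd11b2, which inactivates glucocorticoid and so shields that receptor, went from 2.96, 5.11, 3.43 and 4.71 TPM to 1.57, 0.99 and 1.26 TPM (log2 fold change -1.14 ± 0.22, adjusted p = 0.00187). Hsd11b1, which acts in the opposite direction, was far more abundant at 1043 to 1291 TPM in controls and 910 to 1183 TPM with UVB, and was not called (log2 fold change -0.16 ± 0.09, adjusted p = 0.234). Atp1b1, a subunit of the sodium pump, fell from 168, 153, 151 and 126 TPM to 96.3, 56.0 and 77.3 TPM.

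Of 17 clock genes 3 fell and none rose, with a median of -0.10, and 1 was called higher without Control WT rat 1 or UVB WT rat 1. Nr1d1, the repressor REV-ERB alpha, went from 51.1, 65.5, 75.9 and 89.8 TPM to 43.2, 30.3 and 27.7 TPM (log2 fold change -1.04 ± 0.22, adjusted p = 0.00395), while Npas2 fell by 0.64. The hour of dissection is not given in the sources used here. None of 27 oxidative phosphorylation genes was called by limma (median 0.09), and 13 had an unadjusted p under 0.05, again without a share over all genes. The most abundant of them, the ATP synthase subunit Atp5f1b, was at 1483 to 1574 TPM in controls and 1621 to 1806 TPM with UVB (log2 fold change 0.18 ± 0.05, adjusted p = 0.0145, under the size required). Lists of 14 hypoxia and glycolysis genes, 21 TGF-beta and activin genes and 16 unfolded protein response genes each had 1 gene called higher and 1 called lower, counts that ranged within 0 to 3 with a rat left out.

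Whether the response was particular to WT rats was asked with the 10 P1.hMR rats, which share no animal with the WT groups. In these, 623 (4.89%) of the same 12729 genes were higher and 723 (5.68%) lower in UVB than in control rats. All 15 genes with the largest rise and all 15 with the largest fall in WT rats were also called in P1.hMR rats, each with the sign it had in WT rats. On the log2 scale Cpxm1 stood at 3.66 (WT) and 3.60 (P1.hMR), Sprr1b at 3.66 and 4.17, Krt77 at -4.01 and -3.25, and Ptgds at -1.56 and -0.97. By limma's interaction term no gene differed in its UVB response between genotypes at an adjusted p under 0.05 (smallest 0.279), although 888 genes had an unadjusted p under 0.05. With one rat left out the number was 1 without Control WT rat 4 and 10 without UVB WT rat 3.

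Side by side, the list medians of WT and P1.hMR rats were 0.65 and 0.54 for mitosis, 0.76 and 0.67 for complement, 0.43 and 0.31 for endothelium, -1.11 and -0.89 for the inner root sheath and -1.02 and -0.62 for hair shaft keratins. They stood further apart for mast cell genes (0.64 and 1.19, with 3 and 5 of 6 genes called higher) and for melanocyte genes (-0.66 and -0.36, with 5 and 0 of 8 called lower). The differences of these medians were not tested.

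**Figure D5:**
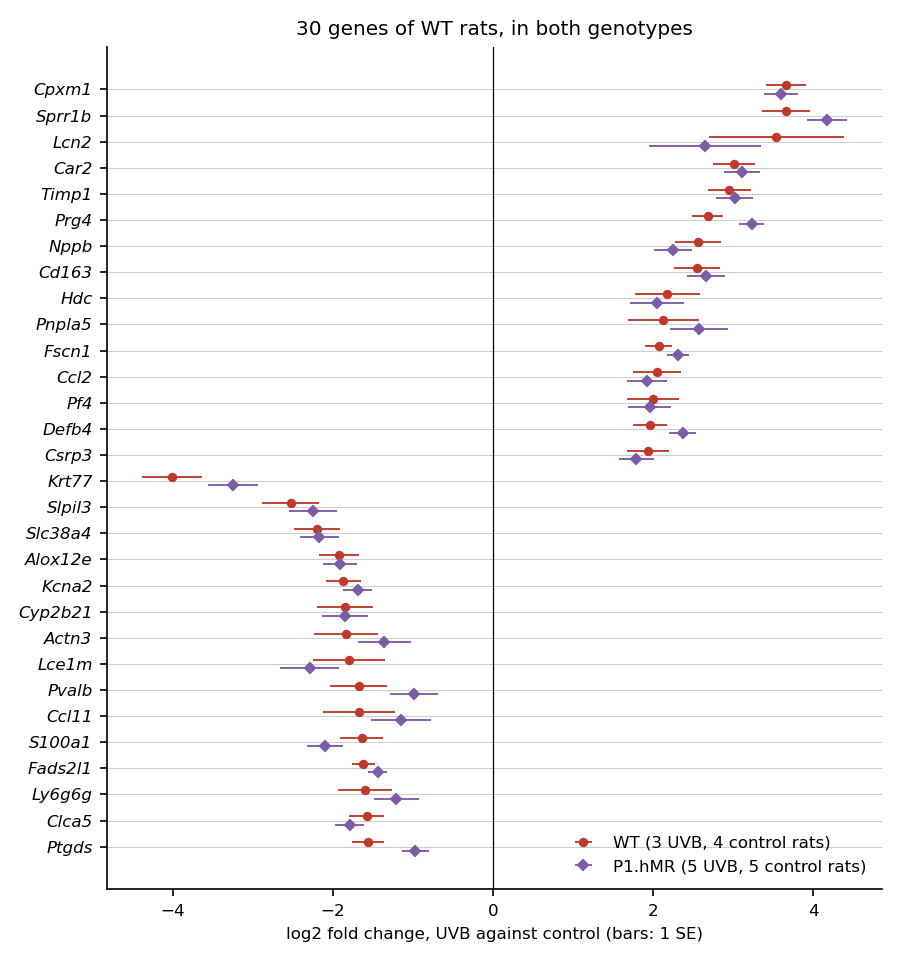
Log2 fold change of UVB against control (bars, 1 SE) in WT rats (circles, 3 UVB and 4 control) and in P1.hMR rats (diamonds, 5 UVB and 5 control) for the 30 genes with the largest changes in WT rats. All 30 lie on the same side of 0 in both genotypes.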

How the data were processed

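MG RNA from 17 rats was sequenced by the authors, and the deposited table gives TPM (transcripts scaled for gene length and library size) per gene and rat, with decimal commas. The study's methods name FastQC, STAR and RSEM on the rn7 genome, while the submitters' processing notes name FastQC, Trimmomatic, DRAGEN and Picard with rn7, so which tools made the TPM is not settled. TPM carries no read depth, so no counting error can be given, and the precision rests on the number of rats and the spread between them. Strand handling and the treatment of reads shared by similar genes are not given in the sources used here.

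Values were read as log2(TPM + 1), with a pseudocount of 1, so fold changes of genes near 1 TPM are understated. Genes that reached 1 TPM in 3 or more of the 7 WT rats entered limma 3.58.1 in R 4.3.3 with a variance trend, 1 mean for each of the 4 groups of 17 rats and no covariate. The fit estimates the spread from all 17 rats, and only the WT contrast was read for WT results. Calls required an adjusted p (Benjamini-Hochberg, over all genes tested) under 0.05 and a log2 fold change of at least 0.5 in size. An exact permutation test of 3 against 4 rats cannot pass that threshold, so none is given. The response was compared with that of P1.hMR rats by the interaction term. The script was tested on simulated data. Groups came from the labels, and where replicate numbers match, nothing says that the rats are related. The p-values set each group difference against the spread between rats within groups, estimated from all 17 rats.

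The members, the 51 gene lists (908 genes, 710 tested) and the tests were chosen with earlier results of these data known, so no list is independent evidence. A list was described by its calls and median, and some lists also by the number of genes with an unadjusted p under 0.05. For that number no share over all genes is given, so it does not set a list apart. Genes were named as the 15 largest rises and 15 largest falls among called genes with no overlap of groups and a mean of at least 5 TPM in the higher group (leaving out names that are only clone or locus identifiers), the 3 largest called changes and the most abundant member of each list, and the receptor. Values are printed for part of these, and any other gene was named after its values were seen. List genes without a row were not analysed here. Some genes that the rule names are not reported here. Promoter sequences are from RefSeq (GRCr8) and were matched by symbol. Alternatives were another pseudocount, level filter, normalization, variance model, set of rats, fold threshold, a muscle covariate, the replicate number as a block and each WT rat left out.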

Additional observations from a re-analysis of the deposited data

Results flagged for a closer look

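In 10 of the 121 genes given with values, 1 of the 4 Control WT rats lay far from the other 3 by Dixon's test on the log2(TPM + 1) scale, which flags about 1 in 20 groups by chance. Control WT rat 4 was high for Krt77 (47.19 TPM) and Lce1m (32.6 TPM) and low for Lef1 (2.54 TPM). Control WT rat 1 was high for Fscn1 (12.46 TPM) and low for Cd8a (0.18 TPM). Control WT rat 2 was high for Lpl (17.72 TPM) and Atp5f1b (1574.1 TPM) and low for Sele (2.3 TPM). Control WT rat 3 was low for Abca1 (37.55 TPM) and high for Dlx3 (27.26 TPM).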

How the results depend on the processing

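Genes that rose numbered 500 and ranged from 423 to 579 with a WT rat left out, and those that fell numbered 515 and ranged from 340 to 608. With a mean of at least 5 TPM required, 326 rose, and with a log2 fold change of at least 1 required, 107 rose and 110 fell; in both cases the alternative admits fewer genes. With the replicate number as a block 550 rose and 454 fell. Deviations of same-numbered rats from their group means correlated at -0.22, 0.09 and -0.03, and those of differently numbered rats at -0.19 to 0.21. With so few rats these correlations cannot decide whether the numbers pair the rats. Genes that differed between genotypes numbered 0 and ranged from 0 to 10 with a WT rat left out. With the 7 WT rats alone, 400 rose and 386 fell, and 774 of the 1015 genes were called in the same direction. Of the 105 called genes that are given with values, 95 kept the call and direction in every alternative fit that tested them. The log2 fold change threshold of 1 was not applied to these genes one by one. The uncalled Scd and Acta1 changed sign. Scd was at 0.00 with quantile normalization and at 0.02, 0.01 and 0.02 without Control WT rat 1, UVB WT rat 1 and UVB WT rat 3, within a leave-one-out range of -0.14 to 0.02. Acta1 was at 0.37 with the muscle covariate, which contains it, and at 0.02 and 0.16 without Control WT rat 2 and UVB WT rat 3, within a leave-one-out range of -0.19 to 0.16. The median of a list moved by more than the spread between rats in 28 of 864 pairs of list and alternative. Low genes such as the lymphocyte markers rest on values near 1 TPM.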

Other observations

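Some groups outside the lists were seen in the values afterwards and carry no separate test. Besides Csrp3, Ankrd2, Actn2 and Myog rose among muscle genes. Ankrd2, a stretch-responsive ankyrin repeat protein, went from 2.80, 1.81, 1.53 and 0.82 TPM in controls to 12.6, 6.91 and 5.01 TPM with UVB (log2 fold change 1.71 ± 0.35, adjusted p = 0.00309). Actn2, the actinin of all striated fibres, rose by 0.88, and the myogenic factor Myog, which passed the level filter only through the UVB rats, was at 0.29 to 0.64 TPM in controls and 1.40 to 2.64 TPM with UVB. In the same libraries Casq1, the calcium store protein of fast fibres, fell by 0.93 along with Actn3 and Pvalb. Casq1 was not called without UVB WT rat 3 (-0.68, adjusted p = 0.0709) or with the muscle covariate (-0.45). Muscle genes thus moved in both directions within the same rats, but these risers lie outside the muscle list. Of the 13 genes of that list none was called higher, and 12 had a negative log2 fold change.

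Selp, Sele and Icam1, adhesion molecules of activated vessels, rose. Selp went from 1.65, 1.39, 2.34 and 2.04 TPM to 8.64, 5.05 and 5.74 TPM (log2 fold change 1.37 ± 0.29, adjusted p = 0.00402), Sele rose by 1.09 and Icam1 by 0.77. Besides Cyp2b21, Cyp1a1 and Aldh3a1 fell, whereas the quinone reductase Nqo1 rose. Cyp1a1, a target of the aryl hydrocarbon receptor, went from 57.0, 74.9, 68.9 and 83.6 TPM to 39.7, 27.2 and 41.4 TPM (log2 fold change -0.97 ± 0.14, adjusted p = 0.000281). Aldh3a1, an aldehyde dehydrogenase abundant in corneal epithelium, went from 338, 397, 412 and 430 TPM to 204, 198 and 251 TPM (log2 fold change -0.86 ± 0.12, adjusted p = 0.000285).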
